A study of Mus musculus with 11 samples.

Results

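Ngfr-high stellate cells were 1087 of the 6850 cells kept from the uninjured 10x library of the stellate isolation, or 15.9% of it (exact binomial 95% interval 15.01 to 16.8%), and 1087 of 30999 cells kept across the 5 10x libraries of the series. They were selected on measured values: a cell needed at least 300 genes, at most 30% mitochondrial UMIs (unique molecular identifiers, 1 for each captured transcript), 3 or more UMIs of Ngfr and no UMI of Adamtsl2. The 2043 cells of the library with no Ngfr UMI, called Ngfr-zero cells here, served for comparison, and 3720 cells with Ngfr UMIs that the rule did not choose entered neither class. Levels of Ngfr and Adamtsl2 are therefore the rule itself and not a result.

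All animals were male Pdgfrb-BAC-eGFP reporter mice aged 10 to 16 weeks on a C57BL/6 background, whose mesenchymal cells carry GFP under the Pdgfrb promoter. The groups used here were uninjured mice, mice 72 h after a single dose of carbon tetrachloride (CCl4), a toxin that injures hepatocytes, and mice dosed with CCl4 for 6 weeks. In each 10x library the cells of 3 mice were pooled, so cells could not be assigned to animals. Stellate cells came from a perfusion with pronase and collagenase followed by a density gradient and a sort for GFP without CD45 or CD102, and a second isolation (PF, in which the liver was minced and digested without that gradient) supplied 2 further libraries. A Smart-seq2 plate held single cells in 384 wells from 3 uninjured mice.

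Hepatic stellate cells (HSCs) are the pericytes of the liver sinusoid: they wrap the endothelium, store vitamin A as retinyl esters and turn into matrix-producing myofibroblasts after injury. Ngfr encodes the low-affinity neurotrophin receptor p75NTR, a member of the TNF receptor family. Clec4g encodes a C-type lectin known best from sinusoidal endothelium, Gcgr the glucagon receptor, and Itgb3 the β3 integrin subunit. The liver lobule is polarised between portal tract and central vein, and the reporter study set Ngfr-associated and Adamtsl2-associated HSCs against each other along that axis.

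The Ngfr gene lies at chr11:95568818-95587735 on the minus strand of GRCm38. RefSeq (GRCm38.p6) gives the 250 bases upstream of its start, at chr11:95587699-95587948, shown because this gene chose the cells. The RefSeq start lies inside the gene bounds given above, which are those of GENCODE, so the last bases shown and the last of the motifs fall within those bounds. Capitals mark GGGCGG, searched on both strands and found 4 times. This motif stands upstream of 67.3% of the 4645 genes tested below that have a RefSeq promoter, so it is a common feature of expressed genes. 70.4% of these bases are G or C.
Ngfr: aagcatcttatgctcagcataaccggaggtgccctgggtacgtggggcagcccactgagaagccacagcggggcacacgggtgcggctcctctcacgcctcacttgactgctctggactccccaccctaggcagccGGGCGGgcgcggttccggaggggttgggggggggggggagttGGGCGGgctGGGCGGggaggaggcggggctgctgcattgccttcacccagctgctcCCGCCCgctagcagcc

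Ngfr UMIs fell off smoothly across the library, with no gap at the threshold. Of all cells, 2043 had none, 1562 had 1, 1084 had 2, 773 had 3 and 494 had 4. Of the 2161 cells with 3 or more, 1074 were left out because they held an Adamtsl2 UMI. The chosen cells held a median of 4 Ngfr UMIs and at most 14, and 355 of them stood at the threshold of 3. Just outside it were 457 cells with 2 Ngfr UMIs and no Adamtsl2 UMI, and 576 cells with 3 or more Ngfr UMIs and a single Adamtsl2 UMI.

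**Figure D1:**
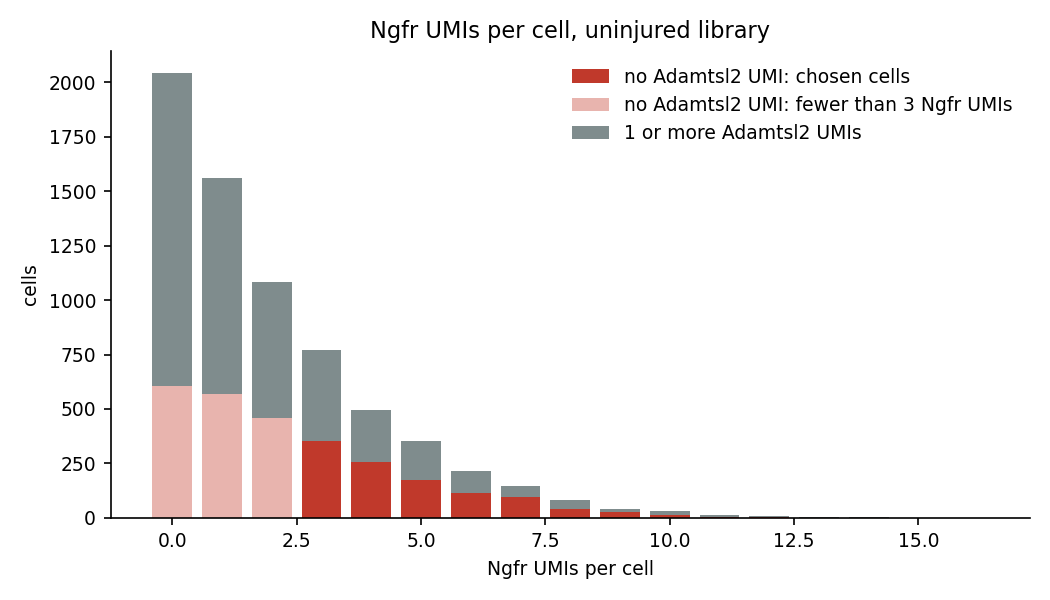
Number of cells (y axis) by Ngfr UMIs per cell (x axis) in the uninjured library, split by the presence of an Adamtsl2 UMI. The chosen cells, in full red, begin at 3 UMIs without a gap from the cells below.

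The label of stellate cell was checked against markers. Every one of the 1087 Ngfr-high cells had UMIs of at least 4 of the 6 HSC genes Reln, Lrat, Vipr1, Colec11, Ecm1 and Hgf, as did 99.6% of Ngfr-zero cells. Lrat, which esterifies retinol for storage, stood at 1228 CPM (UMIs per 1000000 UMIs of the class, the unit of levels below) in Ngfr-high and 1290 in Ngfr-zero cells. Reln, the secreted glycoprotein used to mark HSCs, stood at 1222 and 1551. Both classes were therefore HSC-like, and they differed little in their identity genes: among 14, 2 were at least 1.5-fold higher, none was 1.5-fold lower and the median ratio was 0.960.

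Markers of most other liver cell types were nearly absent. The 9 endothelial genes summed to 3.23 CPM in Ngfr-high and 2.45 in Ngfr-zero cells, and the 8 leucocyte and Kupffer genes to 3.49 and 2.12. The 7 fibroblast genes summed to 28.0 and 32.03, with Gpx3 the most abundant. Cholangiocyte genes summed to 0.517 and 0.735, mesothelial genes to 0 and 1.63 (0 UMIs in Ngfr-high cells, which allows up to 0.388 CPM for a gene), and Schwann cell genes to 1.68 and 2.21, with 5 of the 7 without a UMI in Ngfr-high cells. Clec4g, a gene of sinusoidal endothelium in textbooks, stood at 130 CPM in the Ngfr-high class, far above the sum of the endothelial genes.

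Signals of hepatocyte RNA and of smooth muscle genes did move with the Ngfr-high class. The 7 hepatocyte genes summed to 87.7 CPM in Ngfr-high and 53.4 in Ngfr-zero cells, led by Alb. Cells with UMIs of 3 or more of them numbered 39 of 1087 and 22 of 2043. The 8 vascular smooth muscle genes summed to 884 and 417, led by Tagln, and 21.6% of Ngfr-high cells against 2.94% of Ngfr-zero cells had UMIs of 3 or more. Ngfr-high cells with these smooth muscle genes still held HSC genes, with Reln at 1086 and Lrat at 1205 CPM. Their part in the differences below was not tested beyond leaving such cells out, together with cells above 2 times the median depth, which left 144 genes higher and 101 lower.

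Ngfr-high and Ngfr-zero cells differed in a small part of the transcriptome. Of 6016 genes with at least 20 CPM in the higher class, 171 (2.84%) were at least 1.5-fold higher in Ngfr-high cells and 104 (1.73%) at least 1.5-fold lower. The median ratio over all 6016 genes was 1.02. Among the 5606 genes that reached 20 CPM in both classes, 120 were higher and 71 lower. There is 1 library, and the classes were cut from it by a measured gene, so these are levels with counting errors and no test. Intervals cover counting error only. Median depth was 7005 UMIs in Ngfr-high and 6146 in Ngfr-zero cells, and median mitochondrial share 1.74 and 1.76%. Among cells of 5000 to 10000 UMIs, 167 genes were higher and 111 lower.

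**Figure D2:**
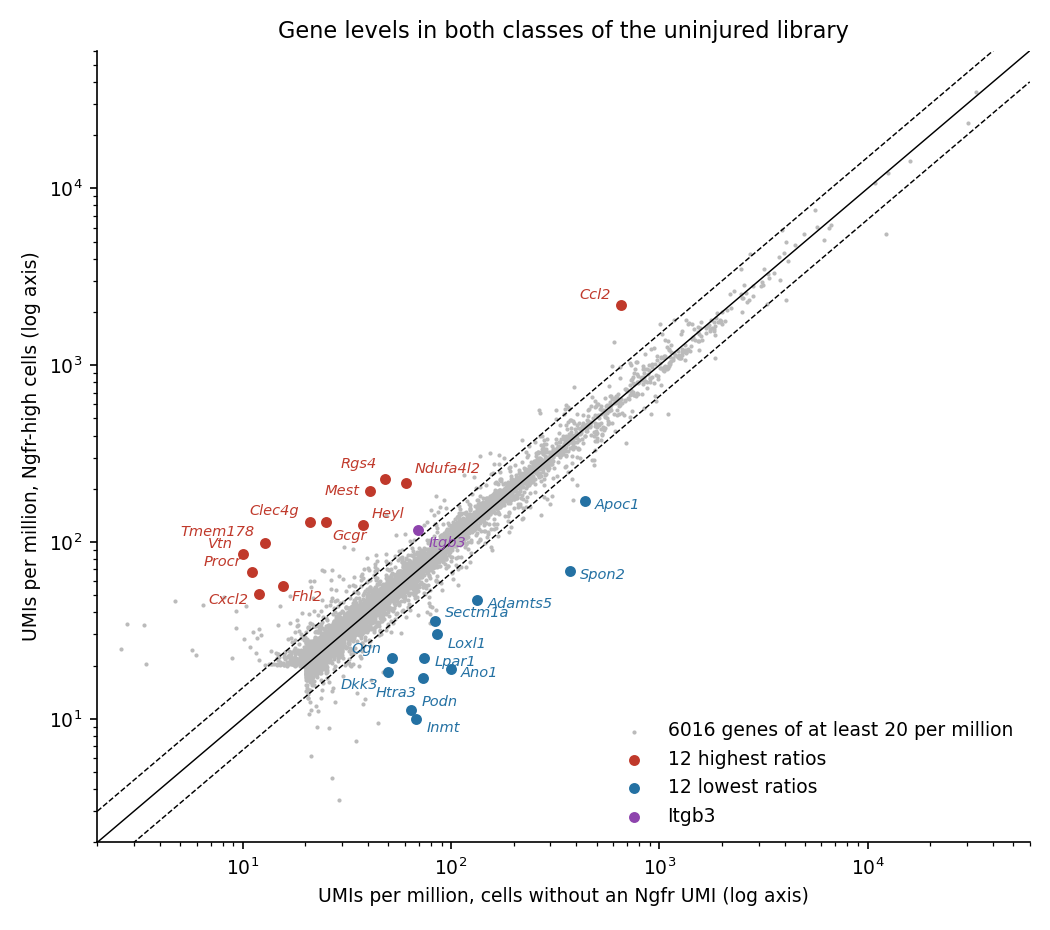
Level of each of 6016 genes in Ngfr-high cells (y axis) against Ngfr-zero cells (x axis), in CPM on log axes, with the solid line at equality and dashed lines at 1.5-fold. Among genes of at least 50 CPM in the higher class, the 12 of highest ratio are red and the 12 of lowest ratio blue, with Itgb3 in purple, and most of the other genes lie between the dashed lines.

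The markers given for these cells were higher to unequal extents. Clec4g (chr8:3707064-3720651) stood at 130 CPM (exact Poisson 95% interval 123 to 139) against 21.0 (18.5 to 23.7), a ratio of 6.21. In the 607 Ngfr-zero cells without an Adamtsl2 UMI it stood at 32.6. Gcgr (chr11:120530699-120538986) stood at 130 against 25.2, a ratio of 5.18. Itgb3 (chr11:104608000-104670476) stood at 117 against 69.2, a ratio of 1.68. Itgb3 was thus the marker that separated the classes least.

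Shares of cells with a UMI were compared at equal depth. After each cell was thinned to 4000 UMIs, Clec4g was seen in 31.1% of Ngfr-high and 6.39% of Ngfr-zero cells, against 44.3 and 10.3% before thinning. Thinning left out 69 Ngfr-high and 336 Ngfr-zero cells that were shallower. The thinned shares were 37.5 and 8.20% for Gcgr and 36.8 and 22.4% for Itgb3. The uninjured library of the PF isolation, which holds few HSCs, gave 3238 thinned cells. Clec4g was seen in 0.0618%, Gcgr in 0.278% and Itgb3 in 1.88% of them, below the thinned shares in Ngfr-zero cells. Genes of high ratio described below went both ways. Vtn was seen in 10.8% of thinned PF and 2.81% of thinned Ngfr-zero cells, Ndufa4l2 in 25.7 and 19.3%, and Rgs4 in 5.22 and 14.4%. Among thinned Ngfr-high cells, 29.96% had none of the 3 markers, 41.0% had 1, 22.7% had 2 and 6.39% had all 3. Of thinned Ngfr-zero cells 67.7% had none.

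Among genes of at least 50 CPM in the higher class, Vtn had the highest ratio. Vtn, which encodes the adhesion protein vitronectin, stood at 85.4 CPM in Ngfr-high and 10.1 in Ngfr-zero cells. Its UMIs lay in few cells, since 22.4% of Ngfr-high cells had any and the top 10% of cells held 74.6% of them. Vtn stood at 164 CPM in Ngfr-high cells with 3 or more smooth muscle genes and at 62.0 in the rest. Hepatocytes also secrete vitronectin, and the hepatocyte gene Alb stood at 35.0 and 16.8 CPM in the uninjured library and at 6.40 and 22.2 at 72 h, where Vtn stood at 18.7 and 1.01. In the other samples described below Alb was higher in Ngfr-high cells, as Vtn was, at 34.5 and 13.9 CPM at 6 weeks and at 62.5 and 0.422 and 151 and 33.5 CPM of reads in mice 2 and 3. The part of hepatocyte RNA in the Vtn level was not tested. Tmem178, a membrane protein of the endoplasmic reticulum, stood at 99.3 and 12.7. Procr, the endothelial protein C receptor of the anticoagulant pathway, stood at 67.7 and 11.0. Vtn, Tmem178 and Procr were each at least 6-fold higher in Ngfr-high cells, but against Ngfr-zero cells without an Adamtsl2 UMI their ratios were 4.92, 4.67 and 3.23.

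The next genes by ratio have varied functions. Rgs4, which shortens G protein signals, stood at 229 and 48.4 CPM. Mest, an imprinted gene of the hydrolase fold, stood at 195 and 40.8. Fhl2, a LIM-domain cofactor of muscle gene transcription, stood at 56.2 and 15.6. Ndufa4l2, a mitochondrial protein induced by hypoxia and typical of pericytes, stood at 214 and 60.6 and Heyl, a Notch target, at 125 and 37.8. Each of these was at least 3-fold higher in Ngfr-high cells. Against Ngfr-zero cells without an Adamtsl2 UMI the ratios of Fhl2, Heyl and Ndufa4l2 were 2.18, 2.35 and 2.55.

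A pair of chemokines completed the set. Ccl2, which draws monocytes, stood at 2182 CPM in Ngfr-high and 654 in Ngfr-zero cells, by far the most abundant of the 12. Cxcl2, which draws neutrophils, stood at 51.0 and 11.9, with 99.7% of its Ngfr-high UMIs in the top 10% of cells. A UMI of Cxcl10, another inflammatory chemokine, was present in 54.9% of Ngfr-high and 41.9% of Ngfr-zero cells. Without those cells the ratio of Ccl2 was 3.25 and that of Cxcl2 fell from 4.28 to 2.77.

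The 12 lowest ratios at 50 CPM or more included extracellular proteins. Spon2, an extracellular matrix protein, stood at 68.8 CPM in Ngfr-high and 372 in Ngfr-zero cells. Podn, a small leucine-rich proteoglycan, stood at 11.2 and 64.1, and Ogn, of the same family, at 22.2 and 52.1. Loxl1, a crosslinker of elastin, stood at 30.4 and 85.4, and the metalloprotease Adamts5 at 47.0 and 134. All 5 were at least 2-fold lower in Ngfr-high cells, but the ratio of Loxl1 was 0.525 against Ngfr-zero cells without an Adamtsl2 UMI. Without the condition on Adamtsl2, the ratios of Podn, Spon2 and Loxl1 were 0.313, 0.327 and 0.534.

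The others encode a receptor, a channel, enzymes and secreted proteins. Ano1, a calcium-activated chloride channel, stood at 19.1 CPM in Ngfr-high and 99.4 in Ngfr-zero cells. Lpar1, a receptor of lysophosphatidic acid, stood at 22.2 and 74.4. Inmt, a methyltransferase of indole amines, had the lowest ratio at that level, at 9.95 and 67.8. Without the condition on Adamtsl2 the ratios of Ano1 and Htra3 were 0.333 and 0.397, against 0.192 and 0.233 with it. The serine protease Htra3 stood at 17.1 and 73.2, the secreted Wnt modulator Dkk3 at 18.3 and 50.01, the apolipoprotein Apoc1 at 171 and 439 and Sectm1a, a member of a small immune gene family, at 35.8 and 83.4.

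The gene lists were chosen with earlier results of these data known, so counts by list are not independent evidence. A gene can also stand in more than 1 list. Of 13 pericyte genes listed, 11 reached 20 CPM in a class, and 8 of these were at least 1.5-fold higher and 1 lower. The shares over all 6016 genes were 2.84% higher and 1.73% lower. Notch3, Cox4i2 and Vtn reached 20 CPM in Ngfr-high cells only, so that they could not have counted as lower. All genes that did so numbered 228, of which 51 were higher. Of the 8 pericyte genes that reached 20 CPM in both classes, 5 were higher, against 120 of 5606 over all genes. Notch3, the Notch receptor of mural cells, stood at 34.5 and 2.78 CPM, a ratio of 12.4. Cox4i2, a cytochrome c oxidase subunit of pericytes, stood at 43.4 and 10.4. The potassium channel subunits of the same list had ratios below 1. Abcc9 stood at 530.5 and 907 CPM and Kcnj8 at 426 and 613. Rgs5, the most abundant member, stood at 2401 and 2479.

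Of 18 contractile genes listed, 13 reached 20 CPM, and 7 of these were higher and none was 1.5-fold lower (2.84 and 1.73% over all 6016 genes). Myh11 and Acta2 reached 20 CPM in Ngfr-high cells only, and of the 11 that reached it in both classes 5 were higher. Counts over all genes were 51 higher of 228 in the first case and 120 of 5606 in the second. Myh11, the smooth muscle myosin heavy chain, stood at 44.3 and 6.46 CPM, and Acta2, smooth muscle actin, at 43.5 and 15.04. In the 607 Ngfr-zero cells without an Adamtsl2 UMI Acta2 stood at 35.6, within 1.5-fold of the Ngfr-high level. Tagln stood at 555 and 264. Acta2 UMIs lay in only 69 of the 1087 Ngfr-high cells, whereas 803 of them had a Tagln UMI and 249 a Myh11 UMI. Ngfr-high cells with a Myh11 UMI held Reln at 1152 and Lrat at 1198 CPM.

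The Notch pathway list held higher genes and none that was 1.5-fold lower, and the matrix list held genes of both kinds. Shares over all 6016 genes were 2.84% higher and 1.73% lower. Of 7 Notch pathway genes 3 were higher, namely Notch3, Heyl and the ligand Jag1 (83.96 and 43.5 CPM), while Hes1 stood at 428 and 539.6. Of the 6 that reached 20 CPM in both classes, which leaves out Notch3, 2 were higher. Of 25 matrix genes 6 were higher and 3 lower (median ratio 1.07). The higher ones included fibronectin Fn1 (539 and 267 CPM) and the laminin Lama1 (172 and 92.4). The lower ones were Loxl1, Lum (1103 and 1848), a collagen-binding proteoglycan, and Col1a1 (135 and 219), the major fibrillar collagen chain.

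Members of the receptor lists were mostly within 1.5-fold, as were all 6016 genes, of which 2.84% were higher and 1.73% lower. Of 14 G protein-coupled receptors 3 were higher, including the parathyroid hormone receptor Pth1r (1800 and 1177 CPM) and the adrenergic receptor Adra1b (57.3 and 33.7). Lpar1 was the only one lower. Of 8 integrin subunits Itgb3 alone passed 1.5-fold, and its ratio was 1.47 against Ngfr-zero cells without an Adamtsl2 UMI, with Itgav, its partner in the αvβ3 receptor of vitronectin, at 61.9 and 54.8. Of 6 TNF receptor family genes 1 was higher, the decoy receptor Tnfrsf11b (752 and 387). None of 7 neurotrophin and neural genes was higher and Nrtn, which encodes neurturin, was lower (20.02 and 32.9), and Gfap, an intermediate filament used as an HSC marker, stood at 23.0 and 22.2. Among 7 lectins Clec4g was higher and Fcna lower (2342 and 4065).

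Secreted signals and stress genes showed a mixed picture, beside 2.84% higher and 1.73% lower over all 6016 genes. Of 9 Wnt and BMP genes none was higher and 3 were lower, led in abundance by Rspo3 (527 and 1098 CPM), the Wnt enhancer, with the BMP pseudoreceptor Bambi at 289.98 and 484. Of the 8 that reached 20 CPM in both classes, which leaves out Dkk3, 2 were lower. Of 8 growth factors and chemokines 3 were higher: Ccl2, Cxcl1 (559 and 321) and Il34 (305 and 138), a ligand of the macrophage receptor Csf1r. Of 4 IGF axis genes the carrier Igfbp3 was higher (1358 and 609). Of 12 hypoxia-linked genes Ndufa4l2 and Hilpda (75.4 and 43.0) were higher and Adm (164 and 300), a vasodilator peptide, was lower. Of 10 retinoid storage genes none was higher and Dhrs3, a retinal reductase, was lower (49.0 and 78.0).

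Genes that respond to cell handling did not move together. Of 8 inflammatory stress genes 5 were higher (2.84% over all 6016 genes), including Icam1 (148 and 86.9 CPM) and Cxcl10 (565 and 370). Of the 7 that reached 20 CPM in both classes, which leaves out Cxcl2, 4 were higher. All 9 immediate early genes lay below 1 without reaching 1.5-fold (median ratio 0.799), with Fos at 3044 and 3809. All 9 heat shock genes lay between 1 and 1.5-fold higher (median ratio 1.09). The median ratio over all 6016 genes was 1.02, so a ratio slightly above 1 was common and is no trait of the heat shock genes. Cell cycle genes were rare: 8 of 1087 Ngfr-high cells (0.736%, exact binomial 95% interval 0.318 to 1.44%) and 5 of 2043 Ngfr-zero cells (0.245%, 0.0795 to 0.570%) had UMIs of 3 or more of them. Portal hepatocyte genes summed to 53.2 and 41.1 CPM and central ones to 572 and 539. The 1 portal and 2 central genes that reached 20 CPM lay within 1.5-fold. Below that level the central gene Cyp2e1 stood at 8.14 and 13.0. Of the genes that the study itself associated with Ngfr on these cells 45 of 51 were higher, and of those it associated with Adamtsl2 24 of 28 were lower, which is not independent evidence. Over those that reached 20 CPM in both classes the counts were 39 of 45 and 19 of 23.

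**Figure D3:**
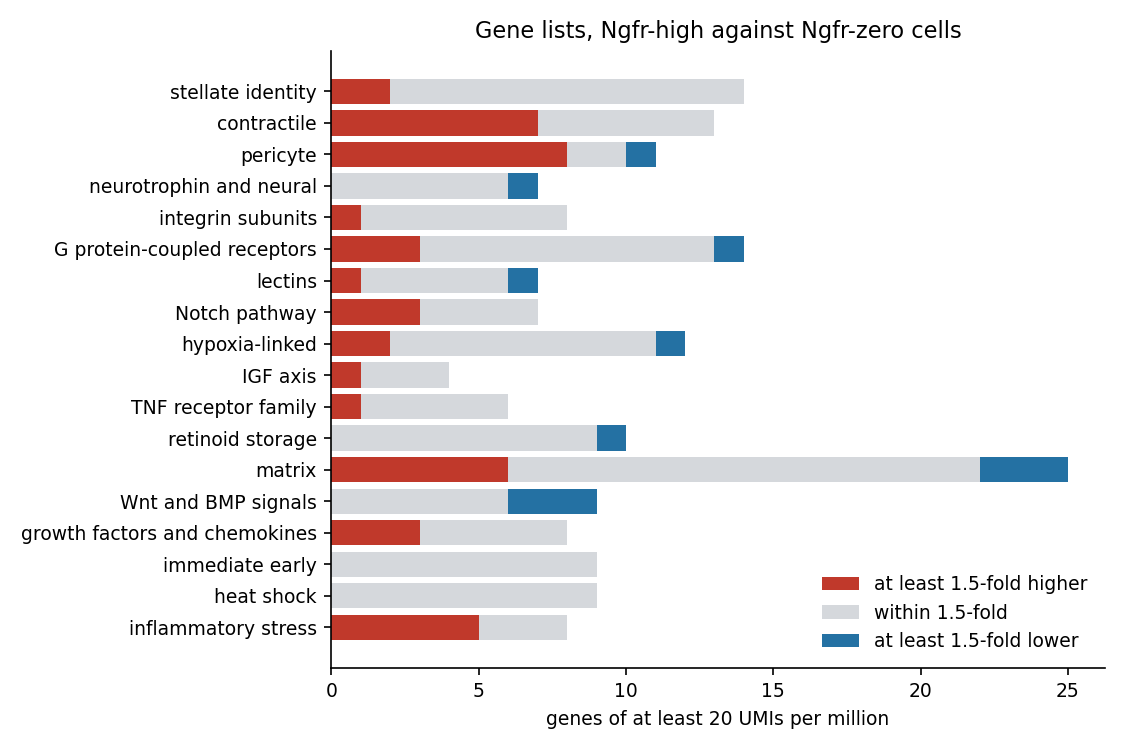
Genes of each list with at least 20 CPM (x axis), split into those at least 1.5-fold higher in Ngfr-high cells (red), within 1.5-fold (grey) and at least 1.5-fold lower (blue). The lists were chosen with earlier results of these data known. The pericyte list has 8 of 11 genes in red and the contractile list 7 of 13. Without genes that reached 20 CPM in Ngfr-high cells only, these counts are 5 of 8 and 5 of 11.

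Levels differed step by step with the Ngfr count, on both sides of the threshold. Among cells with no Adamtsl2 UMI, Mest stood at 53.0 CPM with 0 Ngfr UMIs, 83.0 with 1, 104 with 2, 145 with 3 to 4 and 253 with 5 to 9. Gcgr stood at 33.8, 67.2, 91.7, 108 and 151 in the same classes. Itgb3 stood at 79.1, 94.9, 120, 116 and 120, so that it was level from 2 Ngfr UMIs on. Spon2 fell in the opposite sense, at 289, 196, 129, 80.9 and 56.5. Only 27 cells had 10 or more Ngfr UMIs, and their intervals were wide.

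Cells just outside the rule were compared with those just inside. With exactly 3 Ngfr UMIs Clec4g stood at 95.2 CPM, with 2 at 74.4, and with 3 or more Ngfr UMIs and a single Adamtsl2 UMI at 85.0. With 2 or more Adamtsl2 UMIs it stood at 51.9. Spon2 stood at 84.7 CPM (73.5 to 97.2) with exactly 3 Ngfr UMIs, 129 (116 to 143) with 2, and 123 (113 to 134) with 3 or more and a single Adamtsl2 UMI. Levels thus differed with Adamtsl2 as well as with Ngfr. Ngfr-zero cells mostly held Adamtsl2, with 29.7% free of it. Against those 607 cells alone 135 genes were higher and 81 lower, and the ratio of Clec4g was 3.997 and that of Fhl2 2.18.

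**Figure D4:**
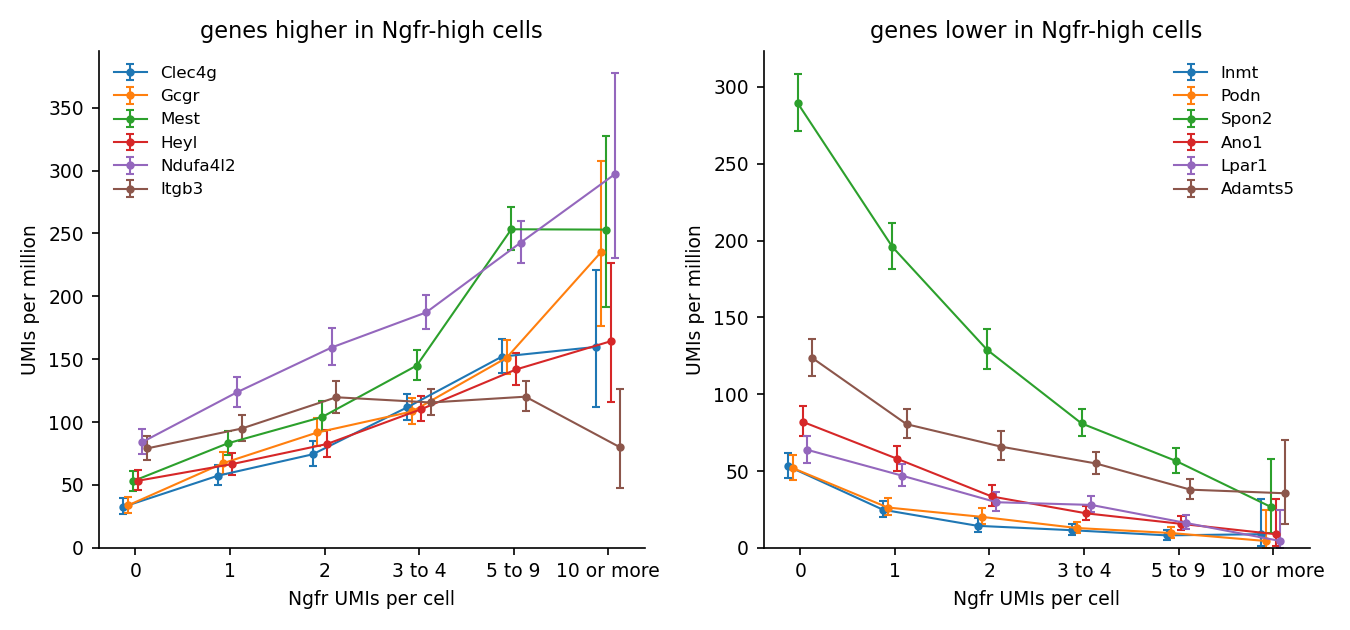
CPM (y axis) of 6 genes higher (left) and 6 genes lower (right) in Ngfr-high cells, by Ngfr UMIs per cell (x axis) among cells with no Adamtsl2 UMI. Points are sums over the cells of a class and bars exact Poisson 95% intervals, and Spon2 goes down from 289 at 0 Ngfr UMIs to 80.9 at 3 to 4.

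The Adamtsl2-high cells of the library, 452 cells with 3 or more Adamtsl2 UMIs and no Ngfr UMI, extended the contrast. Clec4g stood at 13.6 CPM in them and Gcgr at 17.96, each below the level of all Ngfr-zero cells, of which they are a part. Spon2 stood at 480 and Ano1 at 126, above that level. Notch3 rested on few UMIs, at 1.36 in these cells against 2.78. Lrat stood at 1310 in them against 1228 in Ngfr-high cells. Because both sets were chosen by measured genes, these values are a description.

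Ngfr-high cells also differed among themselves. Over 1663 genes of at least 100 CPM, the median ratio of variance to its Poisson expectation was 1.07, so most genes spread little beyond counting error. The 5 genes with the widest spread were Malat1, Actb, Ccl2, Fos and Cxcl10. Ccl2 had a variance 27.5 times its expectation, was present in 87.3% of Ngfr-high cells and had up to 147 UMIs in a cell. Cxcl10 had 18.2 times its expectation, with 60.2% of its UMIs in the top 10% of cells. Among the markers, the top 10% of cells held 51.0% of Clec4g UMIs, 37.5% of Gcgr UMIs and 35.1% of Itgb3 UMIs.

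The same classes were then formed in samples that the rule had not used. The 72 h library gave 823 Ngfr-high and 3119 Ngfr-zero cells of 7310, or 11.3% Ngfr-high (10.5 to 12.01%), and the 6-week library 793 and 2166 of 5454, or 14.5% (13.6 to 15.5%). At 4000 UMIs a cell the share was 11.0% in the uninjured, 5.18% in the 72 h and 6.57% in the 6-week library, with 1 library per condition and no test. The rule found 4 of 5737 cells in the uninjured PF library and 13 of 5648 in the injured one, and none of those had UMIs of 4 of the 6 HSC genes. On the Smart-seq2 plate, the HSC wells with the most Ngfr reads per total reads (50 of 151 in mouse 2, 52 of 156 in mouse 3) were called Ngfr-high where they held no Adamtsl2 read, and wells with no Ngfr read Ngfr-zero. Mouse 2 gave 32 Ngfr-high and 21 Ngfr-zero wells and mouse 3 gave 15 and 29. Mouse 1 had 16 HSC wells, of which 13 held no Ngfr read, and could not be used.

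Most genes past 1.5-fold in the uninjured library had the same direction in these 4 samples. Of 167 genes past 1.5-fold higher that were matched in both data types, 120 (71.9%) were higher in Ngfr-high cells of all 4 samples and none was lower in all 4. Among all 5869 matched genes, 19.2% were higher in all 4 and 8.01% lower. Of 103 matched genes past 1.5-fold lower, 73 (70.9%) were lower in all 4. Of the 12 highest genes 11 were higher in all 4, Cxcl2 being the exception, and all 12 lowest were lower in all 4. Of these, Apoc1 had an edgeR log2 change of -1.96 that turned to 0.26 against cells without Adamtsl2.

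The edgeR quasi-likelihood test over the 4 samples, with the sample as a block, called few genes. Of 11041 genes, 1 was higher and 1 lower at an adjusted p under 0.05 (0.00906% each), and 359 and 308 had an unadjusted p under 0.05. The higher gene was Gcgr, with a log2 change of 3.02 (SE 0.19, edgeR adjusted p = 0.044, higher in 4 of 4). The lower gene was Alcam, an adhesion molecule of the immunoglobulin family named here after its value was seen, with a log2 change of -2.82 (SE 0.16, edgeR adjusted p = 0.044, lower in 4 of 4). The Smart-seq2 sets held 15 to 32 wells and the 10x sets 793 to 3119 cells. A limma-voom fit with a weight for each set, added after this was seen, called 727 genes higher (6.58%) and 676 lower (6.12%), Ngfr and Adamtsl2 not counted, with weights of 3.00 to 7.12 for the 10x sets and 0.192 to 0.212 for the Smart-seq2 sets. DESeq2 called 152 and 157. Without mouse 2 or without mouse 3 edgeR called no gene, with 320 and 379 genes higher at an unadjusted p under 0.05.

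Levels of the markers in each sample show what lies behind these counts. Gcgr stood at 76.7 in Ngfr-high against 6.59 CPM in Ngfr-zero cells of the 72 h library and at 86.3 against 13.9 in the 6-week library. In Smart-seq2 CPM, counted in reads, it stood at 482 against 56.8 in mouse 2 and 248 against 29.7 in mouse 3. Every sample had the higher level in Ngfr-high cells by several-fold, and levels are not comparable between UMIs and reads.

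Clec4g stood at 131 against 4.40 CPM at 72 h and 243 against 29.3 at 6 weeks. In Smart-seq2 it was at 224 CPM of reads in Ngfr-high wells of mouse 2 and listed at 0 in its Ngfr-zero wells, and at 235 against 0.0722 in mouse 3, where the lower value is 1 read. The edgeR adjusted p was 0.46. Itgb3 stood at 152 against 25.0 at 72 h, 201 against 78.9 at 6 weeks, 422 against 183 in mouse 2 and 296 against 127 in mouse 3 (edgeR log2 change 1.52, SE 0.28, adjusted p = 0.25). Both markers were higher in 4 of 4 samples and did not pass the threshold in edgeR, whereas the limma-voom adjusted p was 0.00037 for Clec4g and 0.0010 for Itgb3.

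Mest, the next gene by edgeR after Podn, stood at 328 against 71.2 CPM at 72 h, 362 against 78.6 at 6 weeks, and 936 against 123 and 691 against 148 CPM of reads in mice 2 and 3 (log2 change 2.32, SE 0.18, edgeR adjusted p = 0.060). Podn stood at 3.72 against 28.0 at 72 h, 7.49 against 43.6 at 6 weeks, and 23.1 against 154 and 24.5 against 231 in the mice (log2 change -2.92, SE 0.22, edgeR adjusted p = 0.060). In every sample both genes differed several-fold between the classes. Alcam stood at 29.2 against 186 at 72 h, 47.1 against 267 at 6 weeks, and 14.4 against 121 and 10.6 against 73.1 in the mice. In the uninjured library it had stood at 9.43 against 44.6.

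Smooth muscle genes did not all hold. Myh11 was higher in 4 of 4 samples, at 43.7 against 19.1 CPM at 72 h, 72.1 against 14.7 at 6 weeks, 187 against 31.2 CPM of reads in mouse 2 and 121 against 0.361 (5 reads) in mouse 3. Acta2, the marker of stellate activation, stood at 462 against 1059 at 72 h, the reverse of the 405 against 96.4 at 6 weeks, and at 6.52 against 85.9 CPM of reads in mouse 2. Acta2 was thus lower in Ngfr-high cells of 2 of the 4 samples. Cxcl2 stood at 21.2 against 21.8 at 72 h and 11.3 against 14.2 at 6 weeks. Igfbp3 was higher in 3 of the 4 samples and lower at 72 h, at 131 against 303 CPM. Cxcl1 and Fcna were each higher in 2 samples and lower in 2.

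By lists, the 4 samples gave the following counts by limma-voom, which weighted the injured 10x libraries most, and by direction. No list had more than 1 gene called by edgeR. Of 11 pericyte genes 9 were called higher and 8 were higher in 4 of 4 samples (median log2 change 2.39, against -0.01 over all 11041). Over all 11041 genes, limma-voom called 6.58% higher and 6.12% lower, and 14.1% were higher and 8.31% lower in 4 of 4. Of 16 contractile genes 7 were called higher, and 5 were higher in 4 of 4. Of 28 matrix genes 8 were called higher and 12 lower, whereas 8 were higher and 4 lower in 4 of 4. The fibroblast genes as a sum were lower in Ngfr-high cells of the injured libraries but not of the mice. Over the 4 samples 5 of 6 tested were called lower, while 1 was higher and 0 were lower in 4 of 4. The 7 listed, led by Gpx3, summed to 201 CPM in Ngfr-high and 355 in Ngfr-zero cells at 72 h. At 6 weeks they summed to 307 and 698. In CPM of reads the sums went the other way, at 40.2 and 21.4 in mouse 2 and 54.5 and 46.3 in mouse 3. That rested on Entpd2, the gene higher in 4 of 4, at 26.9 and 0.211 in mouse 2 and 29.6 and 14.0 in mouse 3. Its excess was larger than that of the sums. Gpx3 stood at 13.3 and 21.1 in mouse 2 and at 24.6 and 22.7 in mouse 3, where Dpt stood at 0.146 and 9.46. Dpt, a fibroblast matrix protein, stood at 15.1 and 100.5 at 72 h and at 38.8 and 219 at 6 weeks. At 72 h, 3009 of the 3119 Ngfr-zero cells had UMIs of 4 of the 6 HSC genes. Their levels differed between the classes there. Ecm1 stood at 1819 CPM in Ngfr-high and 712 in Ngfr-zero cells, Colec11 at 4471 and 1602 and Vipr1 at 307 and 127. Lrat stood at 1154 and 896, Hgf at 441 and 343 and Reln at 498 and 567. Col1a1 stood at 576 and 2650. In the uninjured library Ecm1 had stood at 14229 and 15931. The part of the fibroblast genes in the matrix counts was not tested. Of 9 immediate early genes 8 were called lower and 8 were lower in 4 of 4 (median log2 change -0.54), a direction that the ratios below 1 in the uninjured library had shared. Of 14 stellate identity genes 6 were called higher and 3 lower, whereas 4 were higher and 4 lower in 4 of 4.

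**Figure D5:**
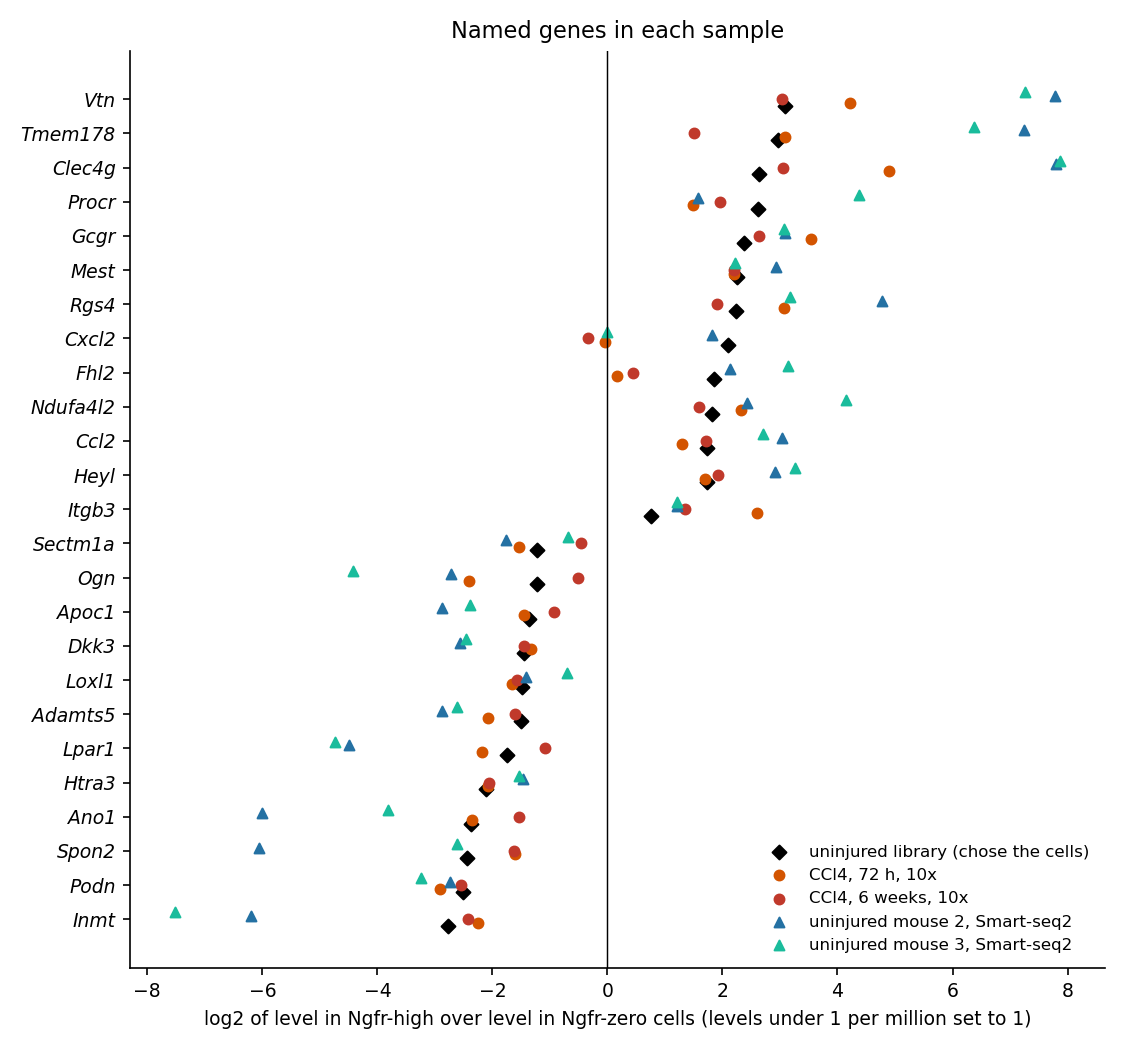
Log2 of the level in Ngfr-high over the level in Ngfr-zero cells (x axis, levels under 1 CPM set to 1) for 25 named genes (y axis) in the uninjured library that chose the cells and in 4 other samples. Except for Cxcl2, the points of a gene lie on a single side of 0, with those of Fhl2 close to 0 in both injured libraries.

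Some promoters of higher genes carried the CArG box, the site of serum response factor, a driver of contractile genes. The box, searched by name on both strands in the 250 bases upstream of RefSeq starts, was present for 7 of the 117 higher genes with a promoter entry (5.98%), 1 of 68 lower genes (1.47%) and 1.59% of the 4645 genes tested. Counted by promoters, since a gene can have several starts, it was in 8 of 161 (4.97%), 4 of 95 (4.21%, all of Egr2) and 1.30% of 5980. In the contractile list 2 of 15 genes with a promoter entry had the box, Myl6 and Myl9, and in the pericyte list 0 of 9. The 7 higher genes with the box are few, and no test was made. The 4 promoters below, chosen after the search, are those of the muscle-related LIM, calponin and myosin light chain genes among them, in GRCm38.p6. Fhl2 is at chr1:43163962-43164211 (minus strand), Fhl1 at chrX:56779433-56779682 (plus), Myl9 at chr2:156775214-156775463 (plus) and Cnn2 at chr10:79988350-79988599 (plus). Capitals mark the box. The ratio of Fhl2 was 3.60, of Cnn2 1.56, of Fhl1 1.55 and of Myl9 1.53. Myl9 stood at 532 CPM in Ngfr-high cells and at 393 in Ngfr-zero cells without an Adamtsl2 UMI, within 1.5-fold. RefSeq lists a second start with a different CArG box for Fhl2 and a second start without a box for Fhl1, which are not shown. A match describes the letters and not a bound site.
Fhl2: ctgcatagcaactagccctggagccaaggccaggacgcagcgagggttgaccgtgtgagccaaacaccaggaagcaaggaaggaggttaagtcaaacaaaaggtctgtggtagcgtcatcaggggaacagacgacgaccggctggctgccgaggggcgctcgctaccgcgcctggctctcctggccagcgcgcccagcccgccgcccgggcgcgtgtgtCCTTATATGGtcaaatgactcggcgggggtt
Fhl1: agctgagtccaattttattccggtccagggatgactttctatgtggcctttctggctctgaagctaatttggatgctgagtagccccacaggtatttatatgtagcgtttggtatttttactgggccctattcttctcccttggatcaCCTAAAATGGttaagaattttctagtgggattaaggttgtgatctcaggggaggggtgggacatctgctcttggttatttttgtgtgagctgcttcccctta
Myl9: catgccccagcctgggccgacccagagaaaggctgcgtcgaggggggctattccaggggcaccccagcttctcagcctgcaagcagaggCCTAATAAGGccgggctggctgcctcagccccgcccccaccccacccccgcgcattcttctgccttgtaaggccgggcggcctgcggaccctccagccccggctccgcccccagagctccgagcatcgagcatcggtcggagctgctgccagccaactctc
Cnn2: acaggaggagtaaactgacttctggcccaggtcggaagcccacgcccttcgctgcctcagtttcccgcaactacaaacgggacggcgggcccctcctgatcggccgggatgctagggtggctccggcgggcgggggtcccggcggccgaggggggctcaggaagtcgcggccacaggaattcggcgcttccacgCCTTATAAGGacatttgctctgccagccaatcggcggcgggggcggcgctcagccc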

How the data were processed

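UMI counts per gene and cell were deposited by the authors for 5 10x libraries (Cell Ranger 2.1.0 and mm10 per the submitters' notes), and read counts per gene and well for Smart-seq2 plates, of which 1 was used here. UMIs were summed per class and given as CPM (per 1000000). Total depth was 46392040 UMIs in the uninjured library. No doublet caller was run, and an alternative leaves out deep cells. The uninjured library shared 45 to 74 barcodes with each other library, and 35 Ngfr-high cells had a barcode seen elsewhere. The members and gene lists were chosen with earlier results of these data known. Named genes were the 12 largest ratios each way at 50 CPM or more, the markers, list members of largest ratio and the 5 genes of widest spread, and other list members and Alcam were named after their values were seen. The study's own gene lists came from its supplementary table. Sums per sample and class were tested in edgeR 4.0.16 (glmQLFit and glmQLFTest, filterByExpr, TMM, sample as a block, Benjamini-Hochberg), with DESeq2 and limma-voom as alternatives. Classes within a sample share a library or mouse, which is why the block is in the design (correlation of deviations 0.344 to 0.764). For mouse 2, at 0.381, the best correlation was with a different sample. The 10x samples pool mice, so p-values measure the spread between these 4 samples and not between mice. Those of limma-voom rest mostly on the injured 10x libraries, whose sets had weights of 3.00 to 7.12 against 0.192 to 0.212 for Smart-seq2. The scripts were tested on simulated data.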

Additional observations from a re-analysis of the deposited data

How the results depend on the processing

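Counts in the uninjured library stayed within 1.5 times except in 3 settings. Without the condition on Adamtsl2, 110 genes were higher and 61 lower. With no minimum level the counts were 1088 and 768, and at 100 CPM 52 and 37. The share of chosen cells was 11.0% after thinning to 4000 UMIs. None of the 25 named ratios reversed, and 66 of their alternative values moved beyond counting error (159 did not). Against cells without Adamtsl2, Procr moved from 6.14 to 3.23, Vtn from 8.49 to 4.92, Tmem178 from 7.79 to 4.67, Fhl2 from 3.60 to 2.18 and Clec4g from 6.21 to 3.997. Without the condition on Adamtsl2, Podn, Spon2, Ano1, Htra3 and Loxl1 moved from 0.175, 0.185, 0.192, 0.233 and 0.355 to 0.313, 0.327, 0.333, 0.397 and 0.534. Across the 4 samples, counts higher and lower were 152 and 157 by DESeq2, 3 and 2 without the filter, 0 and 0 without the replicate block, 0 and 0 in uninjured mice only, 323 and 509 in injured libraries only, 0 and 0 against cells without Adamtsl2 (2 and 3 wells a mouse) and 727 and 676 by limma-voom with quality weights. Leaving out a sample gave 0 to 1 higher and 0 to 0 lower, the lower call being lost each time. The log2 change of Cxcl2 reversed from 1.05 to -0.10 without the block, -0.24 without mouse 2 (with 2.35 the highest, without the 6-week library), -0.23 in injured libraries only and -0.18 by limma-voom, and that of Apoc1 from -1.96 to 0.26 against cells without Adamtsl2. The causes were not tested.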
